A study of Nannospalax ehrenbergi and Mus musculus with 25 samples.

Results

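The tissue described here is the fibrosarcoma of Spalax, the blind mole rat (Nannospalax ehrenbergi), set against muscle of the uninjected side of the same animals. Of the 25 libraries of the series, 16 came from Spalax and 4 are compared here. They were chosen by their labels: the injected side (IS) and the uninjected side (UIS) of animal 2240, a female, and of animal 2230, a male. Both were wild-caught animals of no exactly known age. Each had received a single subcutaneous injection of 1 mg of the carcinogen 3-methylcholanthrene (3MCA) into the left flank of the neck, and the samples were taken 18 months later in animal 2240 and 30 months later in animal 2230. IS was the tumor, diagnosed as fibrosarcoma by pathology, and UIS was neck muscle from the opposite side, so the UIS tissue came from an animal that had also been injected. Each tissue of each animal gave 1 library, hence n = 2 per group. The granuloma libraries used for comparison were IS and UIS of animals 600 and 976, both females, sampled 14 and 16 months after the same injection. The control was 4 untreated animals, all females. The remaining Spalax libraries came from the injected side of tolerant animals, which had received the same injection and developed no tumor. These were animals 2251 and 2261, both males, sampled after 18 months, and animals 2218, a male, and 2375, a female, after 30 months. They were used in the model over all 16 Spalax libraries. All genes of the Spalax table were examined, 27988 in number.

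A fibrosarcoma is a malignant tumor of spindle-shaped, fibroblast-like cells. Fibroblasts build the extracellular matrix (ECM), the collagens, glycoproteins and proteoglycans between cells, and secrete the proteases that take it apart. Skeletal muscle, the tissue of the other side, consists of long fibers filled with the contractile proteins of the sarcomere and with mitochondria, and its nuclei do not divide. 3MCA is a polycyclic hydrocarbon whose metabolites damage DNA, and it acts on cells through the aryl hydrocarbon receptor.

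RNA-seq gave between 17025447 and 22033472 reads per library, with both IS libraries deeper than both UIS libraries. The unit of all levels below is the normalised read count, that is, reads divided by the size factor of the library. A level of 10 stood for 16.3 to 16.7 reads in IS but for only 7.03 to 8.25 reads in UIS, so low genes were measured less precisely in UIS. The 2 libraries of a group differed far beyond counting error (chi-square per degree of freedom 390.8 between the tumors and 45.4 between the UIS libraries), and no library was a copy of another. The labels call all 4 tissues muscle, but the IS libraries lacked its markers. Reads of 63 muscle genes made up 22.4% and 23.7% of the UIS libraries of animals 2240 and 2230, 19.8% to 23.7% of the 4 control libraries, and 0.0354% and 0.0297% of the IS libraries. In bulk tissue, fewer cells of a type and less RNA per cell cannot be told apart, which holds for every result below. The UIS library of animal 2230 also held more reads of fat cell genes than that of animal 2240, and their values are given where those genes are described.

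Expression differed between IS and UIS in 5339 of 14696 genes tested with limma (p adjusted by Benjamini-Hochberg, threshold 0.05). These are called differentially expressed genes (DEGs), of which 2550 were higher in the tumors (17.4% of genes tested) and 2789 were lower (19% of genes tested). For all of them both tumors lay on the same side of both UIS libraries. That criterion alone was met by 37.9% of genes tested in the upward and by 36.4% in the downward direction. The difference was at least 4-fold for 1692 of the higher and 1740 of the lower DEGs, and 227 rose while 522 fell by more than 5 on the log2 scale. Of the DEGs, 717 carried provisional names and are not named here. The number of DEGs depended on the UIS libraries: 18 genes were called without the UIS library of animal 2230 and 21 without that of animal 2240, when the lone UIS library was assumed to vary like the tumors. It also depended on scaling. With scaling by total reads, which moved the median difference of all genes up by 0.80 on the log2 scale, 5285 genes were higher and 1654 lower, so that higher genes were 76.2% instead of 47.8% of DEGs. Lists whose counts of higher or lower genes moved by more than 1.5 times are given with both scalings. The background for list counts is 17.4% higher and 19% lower in the main test. With scaling by total reads it is 5166 higher and 1654 lower of the same 14696 genes, so more higher members are found in most lists. Beside the genes fixed by a naming rule, further members of the lists are described that were chosen after their values were seen.

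**Figure D1:**
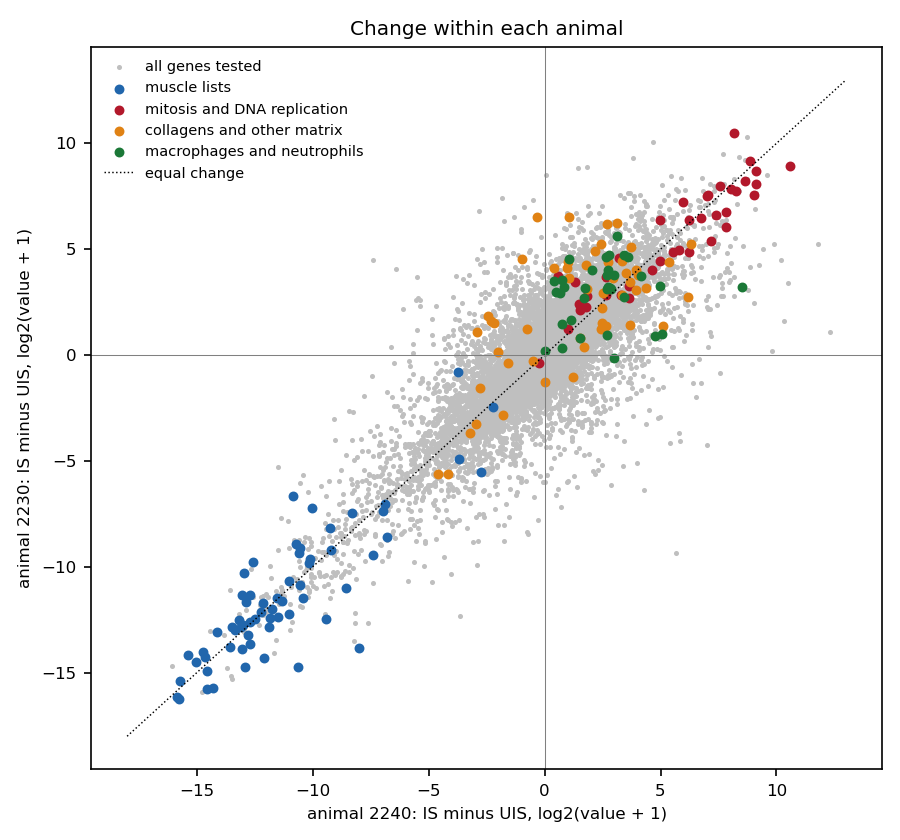
Difference between IS and UIS within each animal, on the log2(value + 1) scale, for the 14696 genes tested (grey) and for members of 4 groups of gene lists (coloured), with animal 2240 on the x axis and animal 2230 on the y axis and the dotted line marking equal change. Muscle genes lie together at the lower left and mitosis and replication genes at the upper right, near the line of equal change, whereas matrix genes scatter away from it.

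The loss of muscle transcripts was almost complete in both tumors. All 13 tested genes of the thick filament, the myosin bundle of the sarcomere, were lower in IS, as were all 19 genes of the thin filament and Z-disc, with median log2 differences of -12.35 and -13.00 against 0.03 over all genes tested. Ckm, the creatine kinase that buffers muscle ATP, had levels of 5.53 and 5.40 in the IS libraries of animals 2240 and 2230 and 362314 and 500094 in the UIS libraries. Myl1, an essential myosin light chain, had 4.30 and 4.20 in IS against 309721 and 376739 in UIS. Acta1, the actin of the thin filament, had 72.5 and 66.0 in IS against 516536 and 638400.0 in UIS. The tumor levels of each of these genes were alike in the 2 animals and lay far below every control library, where Acta1 ranged from 508363 to 778695. The log2 differences were -16.01 for Ckm (SE 0.26, limma adjusted p = 0.000351), -15.99 for Myl1 (SE 0.23, adjusted p = 0.000351) and -13.00 for Acta1 (SE 0.25, adjusted p = 0.000438). Further falls among the 10 largest of all genes were those of Mb (myoglobin, the oxygen store of muscle), Mylpf and Myl2 (regulatory myosin light chains), Neb (nebulin, a ruler along the thin filament), and Tnnc2 (the calcium sensor of fast fibers).

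**Figure D2:**
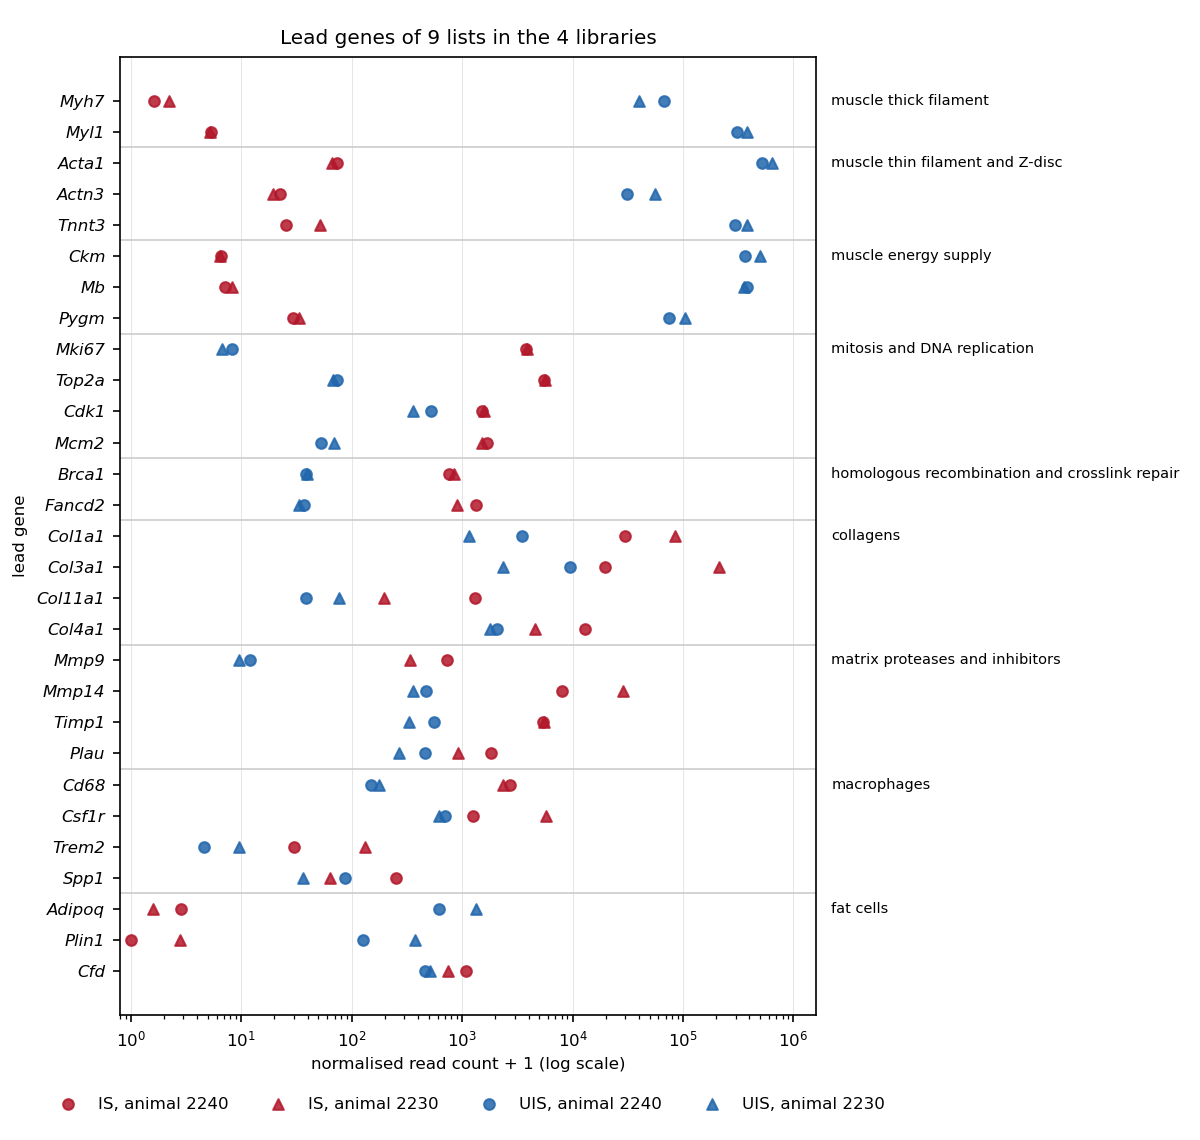
Normalised read count + 1 on a log axis of lead genes of 9 gene lists (y axis, lists named at the right) in the 4 libraries, red for IS and blue for UIS, circles for animal 2240 and triangles for animal 2230. The muscle genes are separated by several powers of 10, with levels in IS of at most 72.5, and the proliferation genes are separated the other way, while Col3a1, at 19532 and 213119, shows how far apart the 2 tumors were for a matrix gene.

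Both fiber types were affected. Myh7, the slow myosin heavy chain, had 0.615 and 1.20 in the IS libraries of animals 2240 and 2230 and 67809 and 40384 in the UIS libraries. Only 3 reads of Myh7 were present in IS, and the ratio of UIS to IS was 59639.9 (95% exact Poisson interval 20408 to 289200.0, counting error only). Actn3, an actin crosslinker of fast fibers, had 21.5 and 18.6 in IS against 30889.9 and 56222 in UIS (log2 change -10.95, SE 0.36, limma adjusted p = 0.000677). Tnnt3, the fast troponin T, had 24.6 and 51.0 in IS against 293128 and 383645 in UIS (log2 change -13.17, SE 0.42, limma adjusted p = 0.000652). Slow and fast genes were thus low in both tumors, with no overlap between IS and UIS. Myot (myotilin, a Z-disc protein) was left with 2 reads in IS, a ratio of 88388 (interval 24468 to 729845), and Sln (sarcolipin, which restrains the calcium pump) with 1 read, a ratio of 94997 (interval 17050.2 to 3752200.0). The fast myosin heavy chain genes Myh1, Myh2 and Myh4 are not analysed here.

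Calcium handling genes followed, with 14 of 15 lower. Ryr1, the calcium release channel, had 11.1 and 13.2 in IS against 104197 and 102837 in UIS (log2 change -12.95, SE 0.22, limma adjusted p = 0.000351), and Atp2a1, the calcium pump that ends contraction, had 62.1 and 94.1 in IS against 305340.0 and 428109 in UIS (log2 change -12.19, SE 0.34, limma adjusted p = 0.000638). Cacng1, a calcium channel subunit, was at 0 in both tumors and at 3419.96 and 4003 in UIS, at least 2038-fold lower against a floor of 3 reads per library. The exception was Casq2, the slow and cardiac calsequestrin, at 9.84 and 191 in IS against 144 and 328 in UIS (limma adjusted p = 0.289), where the tumor of animal 2230 lay within the range of the UIS libraries. The median log2 difference of this list was -11.50, and -10.99 with genes at 0 set to that floor. For the other lists described here such genes did not move the median, apart from the chemokines below.

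The main myogenic regulators were at or near 0 in the tumors. Myog (myogenin, the factor of muscle differentiation) was at 0 in both tumors and at 790.4 and 826 in UIS, at least 444-fold lower. Myod1, which commits cells to muscle, had 1 read in IS and 436 and 606 in UIS, a ratio of 1738 (interval 312 to 68635). Pax7, the marker of satellite cells, the stem cells of muscle, was low everywhere, with 0.615 and 0 in IS against 19.4 and 12.8 in UIS, and its ratio of 52.4 had an interval of 9.40 to 2068. In all, 11 of 13 tested members were lower and none higher, with a median log2 difference of -4.40. Pax3, a paralog of Pax7, had 183 in the tumor of animal 2240 and 1.20 in that of animal 2230, on either side of 36.4 and 93.8 in UIS, and was not a DEG (limma adjusted p = 0.614).

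Genes of muscle energy supply were lower in IS in 16 of 16 cases (median log2 difference -9.83). Pygm, which breaks down glycogen, had 28.3 and 32.4 in IS against 74093 and 104102 in UIS (log2 change -11.46, SE 0.27, limma adjusted p = 0.000481). Ppp1r3a, a glycogen-targeting phosphatase subunit, was at 0 in both tumors, at least 3523-fold lower than in UIS. The 15 tested subunits of the respiratory chain and ATP synthase also fell, all 15 of them, but by far less, with a median log2 difference of -2.84. Sdha, the catalytic subunit of succinate dehydrogenase, had the largest fall among them, from 34832 and 39139.6 in UIS to 2453 and 2309 in IS (log2 change -3.95, SE 0.25, limma adjusted p = 0.00251). No respiratory chain gene was below 492 in a tumor. Of the genes of muscle wasting and glucocorticoid response, 5 of 10 were lower and none higher. They included Trim63 and Fbxo32, the ubiquitin ligases of muscle atrophy. Trim63 had 9.84 and 1.80 in IS against 3763 and 3375 in UIS (log2 change -9.34, SE 0.74, limma adjusted p = 0.0039) and Fbxo32 348 and 63.0 in IS against 3342 and 2644 in UIS (log2 change -4.32, SE 0.85, limma adjusted p = 0.0227).

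Genes of cell types that accompany muscle fibers were also lower. Among fat cell genes 8 of 14 were lower and none higher, and 8 and 1 with scaling by total reads (median log2 difference -4.16). Adipoq, the hormone adiponectin, had 1.84 and 0.600 in IS against 616 and 1346 in UIS, within the control range of 98.3 to 3613 on the UIS side (log2 change -8.74, SE 0.64, limma adjusted p = 0.0035). Plin4, a lipid droplet coat protein that muscle fibers also express, had 0.615 and 5.40 in IS against 5905 and 6291 in UIS (log2 change -10.89, SE 0.75, limma adjusted p = 0.00296). Cfd (adipsin), the exception among the lead genes, had 1075 and 745 in IS against 464 and 515 in UIS and was not a DEG (limma adjusted p = 0.0776). The 2 UIS libraries differed here: Cidea, a gene of brown fat lipid droplets, had 19.4 in animal 2240 and 5053 in animal 2230, and Adipoq, Fabp4 and Dgat2 were each higher in animal 2230 by more than 2-fold. How far this contributed to the falls was not tested, although the lower UIS level of Adipoq was still far above both tumors.

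Nerve and neuromuscular junction genes were lower in 9 of 15 cases and higher in none, or 8 and 2 with scaling by total reads (median log2 difference -2.99). Chrna1, the alpha subunit of the muscle acetylcholine receptor, was at 0 in both tumors and at 58.2 and 152 in UIS, at least 57.7-fold lower. Musk, the kinase that assembles the junction, had 1 read in IS and 75.2 and 45.5 in UIS, a ratio of 201 (interval 36.1 to 7947). Both genes were thus at or near 0 in the tumors and present in both UIS libraries. The Schwann cell factor Sox10 was at 0 in both tumors.

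The counts of vessel genes depended on scaling. Of 20 endothelial genes 7 were lower and 2 higher, against 1 lower and 3 higher with scaling by total reads. The median log2 difference of -1.01 became -0.21. In the main test 35% were lower and 10% higher, against 19% and 17.4% of all genes tested. With scaling by total reads the background was 1654 lower and 5166 higher of all 14696 genes tested. Pecam1, an adhesion molecule of endothelial cells, had 1477 and 916 in IS against 4298 and 3711 in UIS (log2 change -1.78, SE 0.32, limma adjusted p = 0.0177) and was no longer a DEG with scaling by total reads (adjusted p = 0.0599). The lower genes also included Cdh5, the endothelial cadherin, and Vwf, the clotting factor carrier, whereas Kdr, the main receptor of VEGF, had 1131 and 617 in IS against 1679 and 1622 in UIS and did not pass the test (adjusted p = 0.0958). Higher in IS were Apln, the ligand of a vessel growth receptor, with 586 and 514 in IS against 13.3 and 18.5 in UIS (log2 change 5.04, SE 0.42, limma adjusted p = 0.00413), and Esm1, a marker of sprouting tip cells, with 73.8 and 19.8 in IS against 1.21 and 2.84 in UIS (log2 change 3.76, SE 0.83, limma adjusted p = 0.0298). Sox17, a factor of arterial endothelium, had 45.5 and 13.2 in IS against 285 and 317 in UIS (log2 change -3.55, SE 0.69, limma adjusted p = 0.022). Of 12 smooth muscle and pericyte genes 5 were lower and 1 higher, and 2 lower and 1 higher with scaling by total reads. In the main test these were 41.7% lower and 8.33% higher, against the same background of 19% and 17.4%. Rgs5, a pericyte marker, had 791 and 705 in IS against 8521 and 8229.96 in UIS (log2 change -3.49, SE 0.21, limma adjusted p = 0.00232), and Cspg4, a proteoglycan of pericytes and of many tumors, had 1566 and 1514 in IS against 609 and 567 in UIS (log2 change 1.39, SE 0.22, limma adjusted p = 0.0134). Rgs5 and Cspg4, both pericyte genes, thus lay on opposite sides of UIS. Hbb, a globin of red cells, had 2989 and 1418 in IS against 6479 and 27617 in UIS and did not pass the test (adjusted p = 0.0617). Epithelial genes were near the limit of measurement. Of 3 tested members the keratin Krt14 was at 0 in both UIS libraries and at 11.7 and 22.8 in IS, at least 4.36-fold higher, and the keratins Krt8 and Krt18 were lower, Krt8 with 3.07 and 3.00 in IS against 26.7 and 21.3 in UIS.

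Genes of cell division showed the reverse of the muscle genes. Of 39 genes of mitosis and DNA replication 36 were higher in IS and none lower, with a median log2 difference of 5.69. Mki67, the standard proliferation marker, had 3823 and 3859 in the IS libraries of animals 2240 and 2230 and 7.27 and 5.69 in the UIS libraries. Top2a, the topoisomerase that untangles replicated chromosomes, had 5519.7 and 5599 in IS against 72.7 and 66.8 in UIS, and Mcm2, a subunit of the replicative helicase, had 1694 and 1512 in IS against 52.1 and 68.2 in UIS. The tumors of the 2 animals were nearly equal for each of these genes, although they had been sampled 18 and 30 months after injection. The differences were 9.01 for Mki67 (SE 0.35, limma adjusted p = 0.000854), 6.30 for Top2a (SE 0.23, adjusted p = 0.000804) and 4.72 for Mcm2 (SE 0.31, adjusted p = 0.00259) on the log2 scale.

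Of the 10 largest rises of all genes with a settled name, Mki67 and 8 others belonged to cell division and 1, Mmp3, was a matrix protease described below. The 8 others were Anln (anillin, a scaffold of the cleavage furrow), Cdc20 (which releases cells from metaphase), Kif11 and Kif18b (spindle motors), Clspn (a replication checkpoint adaptor), Ect2 (which triggers cytokinesis), Depdc1 and Kiaa0101 (a partner of the replication clamp). Anln had 3393 and 2526 in IS against 1.21 and 4.26 in UIS (log2 change 9.74, SE 0.58, limma adjusted p = 0.00213) and Cdc20 had 1893 and 1581 in IS against 2.42 and 2.84 in UIS (log2 change 8.90, SE 0.41, limma adjusted p = 0.0013). Kif18b was at 0 in both UIS libraries and at 397 and 589 in IS, at least 125-fold higher. Clspn had 1 read in UIS, and its ratio of IS to UIS was 1148 (interval 206 to 45362). Exceptions were few. Cdk1, the mitotic kinase, rose less, with 1504 and 1585 in IS against 519 and 358 in UIS (log2 change 1.84, SE 0.28, limma adjusted p = 0.0129), and was no DEG against the 4 untreated controls, which ranged from 212 to 1254 (adjusted p = 0.13). The 3 members that were not DEGs were E2f8, at 595 and 396 in IS against 699.5 and 508 in UIS, and both E-type cyclins, which differed between the tumors: Ccne1 had 143 in animal 2240 and 835 in animal 2230, and Ccne2 had 194 and 1286.

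Genes that repair double-strand breaks and DNA crosslinks were higher in 17 of 24 cases and lower in none (median log2 difference 1.53). Brca1, which directs homologous recombination, had 768 and 844 in IS against 37.6 and 38.4 in UIS (log2 change 4.37, SE 0.33, limma adjusted p = 0.00365). Fancd2, the central protein of the Fanconi anemia pathway, had 1347 and 903 in IS against 36.4 and 32.7 in UIS (log2 change 4.96, SE 0.37, limma adjusted p = 0.00365). Exo1, a nuclease that resects broken ends, had 1 read in UIS and 531 and 289 in IS, a ratio of 576 (interval 103 to 22769.9). All of these were high in both tumors and low in both UIS libraries. The 7 members that did not pass the test were Fanca, Fancg, Fen1, Xrcc2, Xrcc3, Palb2 and Atm, whose UIS levels lay between 61.1 and 1009. Fanca, a subunit of the Fanconi core complex, had 242 and 669 in IS against 327 and 311 in UIS (adjusted p = 0.668).

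Of 17 genes of arrest and apoptosis after DNA damage 2 were higher (11.8%, against 17.4% of all genes tested) and 5 lower (29.4%, against 19%). With scaling by total reads 4 were higher and 1 lower, against 5166 higher and 1654 lower of all 14696 genes tested. Higher were Bax, which opens mitochondria in apoptosis, with 925 and 1295 in IS against 270.3 and 324 in UIS (log2 change 1.88, SE 0.30, limma adjusted p = 0.0136), and the death receptor Fas, with 229.9 and 107 in IS against 14.5 and 19.9 in UIS (log2 change 3.13, SE 0.58, limma adjusted p = 0.0194). Ccng1 (cyclin G1) had 2338 and 1455 in IS against 50344 and 53422 in UIS (log2 change -4.81, SE 0.34, limma adjusted p = 0.00309). Mdm2, a ubiquitin ligase, had 2035 and 1154 in IS against 4831 and 4322 in UIS (log2 change -1.58, SE 0.35, limma adjusted p = 0.029), a call lost with scaling by total reads (adjusted p = 0.122). Cdkn1a (p21), a CDK inhibitor, had 486 and 299 in IS against 251 and 101 in UIS and was not a DEG (adjusted p = 0.155).

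Of 14 genes of the G1 phase, when cells commit to division, 5 were higher and 1 lower (9 and 0 with scaling by total reads). The shares in the main test were 35.7% higher and 7.14% lower, against 17.4% and 19% of all genes tested. With scaling by total reads the background was 5166 higher and 1654 lower of all 14696 genes tested. Ccnd1 (cyclin D1) had 524 and 157 in IS against 31.5 and 29.9 in UIS (log2 change 3.18, SE 0.69, limma adjusted p = 0.0285), and Cdk4, its kinase, had 3641 and 4017 in IS against 841 and 1048 in UIS (log2 change 2.02, SE 0.24, limma adjusted p = 0.00726). Within the retinoblastoma family, which holds back E2F factors, Rbl1 had 752 and 558 in IS against 30.3 and 22.7 in UIS (log2 change 4.57, SE 0.40, limma adjusted p = 0.00459) and Rb1 had 644 and 456 in IS against 1720.3 and 1534 in UIS (log2 change -1.58, SE 0.28, limma adjusted p = 0.0169). Rbl1 and Rb1 thus differed from UIS in opposite directions, although the call of Rb1 was lost with scaling by total reads (adjusted p = 0.0768). Cdkn2c, an inhibitor of Cdk4 and Cdk6, had 719 and 1664 in IS against 66.7 and 109 in UIS (log2 change 3.66, SE 0.54, limma adjusted p = 0.0118). Cdkn2a is not analysed here.

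Many ECM genes were higher in the tumors, but not all. Of 19 collagen genes 12 were higher and none lower (median log2 difference 3.10). Col1a1, the main chain of collagen I, had 30015 and 85128 in the IS libraries of animals 2240 and 2230 and 3455 and 1143 in the UIS libraries (log2 change 4.67, SE 0.77, limma adjusted p = 0.0151). Col1a2, its partner chain, had 57179 and 59958 in IS against 4275 and 1753 in UIS (log2 change 4.42, SE 0.50, limma adjusted p = 0.00694), and Col6a2, of the beaded filaments of collagen VI, had 28754 and 28324 in IS against 1865 and 1754 in UIS (log2 change 3.98, SE 0.23, limma adjusted p = 0.00206). For these genes both tumors lay above both UIS libraries and above the control range, which reached 3844 for Col1a1. Col3a1, the chain of reticular collagen III, had 19532 and 213119 in IS against 9455 and 2322 in UIS, and with a more than 10-fold gap between the tumors it was not a DEG (limma adjusted p = 0.0925). Col11a1, a fibril nucleator of cartilage and of many tumors, was higher in the other tumor, with 1316 in animal 2240 and 195 in animal 2230 against 37.6 and 75.3 in UIS (adjusted p = 0.0701). The basement membrane chain Col4a1 had 12994 and 4559 in IS against 2054 and 1774 in UIS (log2 change 2.01, SE 0.55, limma adjusted p = 0.0492).

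Matrix glycoproteins and proteoglycans rose in 12 of 33 cases and fell in 6, or 15 and 4 with scaling by total reads (median log2 difference 2.25). Postn (periostin), a matrix protein of injured and tumor stroma, had 6841 and 4003 in IS against 603 and 267 in UIS (log2 change 3.70, SE 0.51, limma adjusted p = 0.0101). Sparc, a collagen-binding protein, had 31299.7 and 35379 in IS against 5491 and 4689 in UIS (log2 change 2.71, SE 0.28, limma adjusted p = 0.00586), and Has2, which makes hyaluronan, had 2004 and 898 in IS against 24.2 and 22.7 in UIS (log2 change 5.78, SE 0.50, limma adjusted p = 0.00449). Lox, which crosslinks collagen, had 1783 and 319.6 in IS against 42.4 and 14.2 in UIS (log2 change 4.88, SE 1.03, limma adjusted p = 0.0263). Lower were Thbs4 (thrombospondin 4, a matrix protein of tendon and muscle) with 293 and 60.6 in IS against 5337 and 3009.6 in UIS (log2 change -4.90, SE 0.83, limma adjusted p = 0.0159), and 5 genes of proteoglycans, cartilage matrix and elastic fibers, namely Kera, Omd, Ogn, Chad and Fbln5. Kera (keratocan) was at 0 in both tumors and at 23.0 and 48.3 in UIS, at least 19.6-fold lower. The abundant proteoglycan decorin (Dcn) had 3483 and 55605 in the tumors of animals 2240 and 2230, on either side of 19046 and 15691 in UIS (adjusted p = 0.876). Fn1 (fibronectin) had 10569.7 and 51403 in IS against 7983 and 3001 in UIS, and Tnc (tenascin C) had 7266 and 403 in IS against 99.4 and 59.7 in UIS. Neither was a DEG (adjusted p = 0.124 for Fn1 and 0.0716 for Tnc), but with the animal as a block the adjusted p was 0.0198 for Tnc.

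Genes of collagen folding and of the secretory pathway were higher in 15 of 23 cases and lower in 1, or 18 and 0 with scaling by total reads (median log2 difference 1.73). P4ha1, a prolyl hydroxylase, had 4396 and 3217 in IS against 1194 and 1080.5 in UIS (log2 change 1.73, SE 0.26, limma adjusted p = 0.0122), and Plod2, a lysyl hydroxylase, had 16233 and 3257 in IS against 759 and 532 in UIS (log2 change 3.51, SE 0.82, limma adjusted p = 0.0331). Creb3l1, a transcription factor of collagen secretion, had 267 and 142 in IS against 44.9 and 22.7 in UIS (log2 change 2.57, SE 0.59, limma adjusted p = 0.0324). Trib3, a stress-induced pseudokinase, had 360.2 and 315 in IS against 10.9 and 14.2 in UIS (log2 change 4.65, SE 0.43, limma adjusted p = 0.00511). Serpinh1, the collagen chaperone, had 16903 and 4189.96 in IS against 1991 and 1769 in UIS, with an adjusted p of 0.0738 that became 0.034 with the animal as a block. The lower member, Leprel1, another prolyl hydroxylase, had 27.0 and 53.4 in IS against 133 and 179 in UIS (log2 change -1.99, SE 0.53, limma adjusted p = 0.0457), and its adjusted p was 0.0533 with the block and 0.135 with scaling by total reads.

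Of 24 matrix proteases and inhibitors 16 were higher and 1 lower (median log2 difference 3.75). Mmp14, the membrane-bound activator of other metalloproteases, had 8023 and 28651 in IS against 468 and 355 in UIS (log2 change 5.21, SE 0.66, limma adjusted p = 0.00842). Mmp9, a gelatinase, had 728 and 337 in IS against 10.9 and 8.53 in UIS (log2 change 5.54, SE 0.56, limma adjusted p = 0.00565), and Mmp3 (stromelysin), with 3 reads in UIS and 3553 and 201 in IS, gave a ratio of 880.1 (interval 301 to 4268). Plaur, the receptor of the protease urokinase, had 2574 and 419 in IS against 19.4 and 9.95 in UIS (log2 change 6.12, SE 0.99, limma adjusted p = 0.0144). The protease inhibitors were divided. Timp1 had 5351 and 5548 in IS against 554 and 333 in UIS (log2 change 3.66, SE 0.32, limma adjusted p = 0.00449), Timp4 had 3.07 and 40.8 in IS against 550.4 and 557 in UIS (log2 change -5.41, SE 1.19, limma adjusted p = 0.0288), and Timp3 had 807 in animal 2240 and 11831 in animal 2230 around UIS levels of 3233 and 3816 (adjusted p = 0.924).

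General fibroblast markers were not uniformly higher, although the tumor is of fibroblast type. Of 13 tested markers 4 were higher (6 with scaling by total reads) and none lower (median log2 difference 0.67). These 4 were Vim (vimentin, the mesenchymal intermediate filament) with 64785 and 44438 in IS against 7313 and 9525 in UIS (log2 change 2.68, SE 0.37, limma adjusted p = 0.0101), Pdpn (podoplanin) with 10200.3 and 3386 in IS against 114 and 75.3 in UIS (log2 change 5.97, SE 0.61, limma adjusted p = 0.00571), S100a4 and Cthrc1. Pdgfra, the receptor that marks resident fibroblasts, had 2640.3 and 2225 in IS against 1741 and 1255 in UIS (adjusted p = 0.104). Thy1, a surface glycoprotein of fibroblasts, had 44.9 in the tumor of animal 2240, 12547 in that of animal 2230 and 1872 and 2051 in UIS. Fap (fibroblast activation protein) had 2992 and 340.02 in IS against 224 and 169 in UIS (adjusted p = 0.154). The tumor of animal 2240 was thus the lower one for Thy1 and that of animal 2230 for Fap.

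Growth factor pathways gave counts near the background of 17.4% higher and 19% lower. Among TGF-beta, activin and BMP genes 5 of 22 were higher and 5 lower, and 7 and 2 with scaling by total reads. The higher genes included the BMP antagonist Grem1 with 451 and 844 in IS against 24.2 and 8.53 in UIS (log2 change 5.32, SE 0.67, limma adjusted p = 0.00849) and Bmp7 with 261 and 199 in IS against 72.7 and 85.3 in UIS (log2 change 1.52, SE 0.38, limma adjusted p = 0.04; 0.0774 with the animal as a block and 0.194 against the untreated controls). The ligand Tgfb2 had 33.2 and 43.2 in IS against 240.04 and 274 in UIS (log2 change -2.73, SE 0.40, limma adjusted p = 0.0119), while Tgfb1 had 283 and 678 in IS against 182 and 173 in UIS and was not a DEG (adjusted p = 0.111). Inhba, a subunit of activin, had 469.7 in animal 2240 and 19.2 in animal 2230 against 6.06 and 2.84 in UIS (adjusted p = 0.105, and 0.0376 with the block). Of 16 Wnt pathway genes, among them ligands, antagonists and a receptor, 3 were higher and 3 lower, and 5 and 3 with scaling by total reads. Fzd1, a Wnt receptor, had 27764 and 1865 in IS against 113 and 168 in UIS (log2 change 5.70, SE 1.33, limma adjusted p = 0.0334), and the antagonist Dkk2 had 1 read in IS and 113 and 114 in UIS, a ratio of 368 (interval 66.1 to 14552). Sfrp1, another antagonist, had 84.8 and 128 in IS against 1009.9 and 490.5 in UIS (log2 change -2.74, SE 0.49, limma adjusted p = 0.0179). The antagonist Sfrp4 went the other way, with 728 and 1190 in IS against 358 and 206 in UIS (log2 change 1.77, SE 0.43, limma adjusted p = 0.036). Dkk3, a secreted relative of Dkk2, had 4438 and 625 in IS against 138 and 152 in UIS, with an adjusted p of 0.0505 and of 0.0252 with the animal as a block.

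Of 22 growth factors and receptor kinases 4 were higher and 2 lower, and 7 and 2 with scaling by total reads (median log2 difference 0.12). Fgfr2, a fibroblast growth factor receptor, had 539 and 369 in IS against 2.42 and 7.11 in UIS (log2 change 6.41, SE 0.63, limma adjusted p = 0.00542). Hgf, the ligand of the receptor Met, had 91.0 and 174 in IS against 7.27 and 1.42 in UIS (log2 change 4.82, SE 0.82, limma adjusted p = 0.0159), and the receptor kinase Axl had 6982 and 6118 in IS against 1187 and 985 in UIS (log2 change 2.59, SE 0.23, limma adjusted p = 0.00483). The lower genes were Pdgfb, a platelet-derived growth factor chain, with 207 and 212 in IS against 618 and 780.5 in UIS (log2 change -1.73, SE 0.28, limma adjusted p = 0.0146), and Fgf21, with 2.46 and 0 in IS against 21.8 and 22.7 in UIS (log2 change -3.65, SE 0.78, limma adjusted p = 0.0274). Pdgfrb had 875 and 729.8 in IS against 710.4 and 668 in UIS and was not a DEG (adjusted p = 0.522).

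Immune genes were mostly higher in the tumors. Of 24 macrophage genes 12 were higher (18 with scaling by total reads) and none lower (median log2 difference 2.89). For all 24 the difference was positive in both animals, which held for 6023 of all 14696 genes tested. Both tumors lay above both UIS libraries for 20 of the 24. Cd68, a lysosomal protein of macrophages, had 2736 and 2339.9 in the IS libraries of animals 2240 and 2230 and 150.3 and 176 in the UIS libraries (log2 change 3.95, SE 0.25, limma adjusted p = 0.00251). Gpnmb, a protein of lipid-laden and tumor macrophages, had 5839.96 and 15469.9 in IS against 480.1 and 628 in UIS (log2 change 4.11, SE 0.53, limma adjusted p = 0.00869). Csf1r, the receptor that keeps macrophages alive, had 1249 and 5747 in IS against 696 and 613 in UIS (adjusted p = 0.102), and the complement gene C1qa had 1551 and 11806 in IS against 1184 and 1032 in UIS (adjusted p = 0.19). Both tumors were above UIS for Csf1r and C1qa, and in both cases the tumor of animal 2230 was the higher. Trem2, a lipid receptor, had 28.9 and 131 in IS against 3.64 and 8.53 in UIS (adjusted p = 0.0542, and 0.0274 with the animal as a block).

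Neutrophil genes were higher in 6 of 10 cases and lower in none (median log2 difference 2.95). Csf3r, the receptor of the neutrophil growth factor, had 1584 and 699 in IS against 49.7 and 71.1 in UIS (log2 change 4.12, SE 0.52, limma adjusted p = 0.00834), and Fpr2, a receptor for bacterial peptides, had 92.8 and 118 in IS against 9.70 and 1.42 in UIS (log2 change 4.37, SE 0.86, limma adjusted p = 0.0227). S100a8 and S100a9, the calprotectin chains, were not DEGs. S100a8 had 1718 in the tumor of animal 2240 and 136 in that of animal 2230 against 61.8 and 71.1 in UIS (adjusted p = 0.144), so that here the tumor of animal 2240 was the higher. Lymphocyte genes were higher in 9 of 13 tested cases and lower in 1 (median log2 difference 3.10), at low levels. Cd3e, a chain of the T cell receptor complex, had 23.4 and 55.8 in IS against 6.06 and 1.42 in UIS (log2 change 3.17, SE 0.82, limma adjusted p = 0.0429; 0.0554 with the animal as a block). Cd4 had 25.2 and 77.4 in IS against 2.42 and 0 in UIS, with 2 reads in UIS and a ratio of 42.3 (interval 11.7 to 349). Cd79a, a chain of the B cell receptor, was the lower member, with 6.15 and 11.4 in IS against 99.4 and 65.4 in UIS (log2 change -3.12, SE 0.57, limma adjusted p = 0.019). The T cell genes Cd3e and Cd4 thus lay above UIS and the B cell gene Cd79a below it, while Ms4a1, a further B cell gene, was too low to be tested.

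Chemokine and cytokine genes were mostly higher too. Of 13 tested chemokines and receptors 10 were higher and none lower (median log2 difference 3.78, or 3.45 with genes at 0 set to the floor of 3 reads). Cxcl10, which attracts T cells, had 1037 and 199.7 in IS against 4.85 and 4.26 in UIS (log2 change 6.36, SE 0.90, limma adjusted p = 0.0108), and Ccl5, another T cell attractant, had 225 and 1311 in IS against 30.3 and 17.1 in UIS (log2 change 4.52, SE 0.96, limma adjusted p = 0.0267). Ccr2, the receptor that draws monocytes from blood, had 91.6 and 507 in IS against 21.8 and 9.95 in UIS (log2 change 3.78, SE 0.99, limma adjusted p = 0.0437). The tumor of animal 2240 was the higher for Cxcl10 and that of animal 2230 for Ccl5 and Ccr2. Cxcl12, a stromal chemokine, had 81.1 and 1391 in the tumors around UIS levels of 384 and 382 (adjusted p = 0.928). Among 23 cytokines and Toll-like receptors 16 were higher and none lower (median log2 difference 3.33). Tlr4, the receptor of bacterial lipopolysaccharide, had 899.97 and 1719 in IS against 252 and 179 in UIS (log2 change 2.54, SE 0.42, limma adjusted p = 0.0154), and Il6 had 65.8 and 17.4 in IS against 0 and 1.42 in UIS, with 1 read in UIS and a ratio of 58.5 (interval 10.5 to 2311). Il1rn, the antagonist of interleukin 1, had 2 reads in UIS and a ratio of 138 (interval 38.1 to 1136). Il1b had 1099.8 and 99.5 in IS against 26.7 and 17.1 in UIS (adjusted p = 0.0689, and 0.0262 with the block), and Tnf had 12.3 and 15.6 in IS against 3.64 and 0 in UIS (adjusted p = 0.0726).

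Interferon response and antigen presentation genes were higher in 20 of 26 cases and lower in none (median log2 difference 2.62). Irf1, an interferon-induced transcription factor, had 1049 and 1741 in IS against 218 and 182 in UIS (log2 change 2.76, SE 0.35, limma adjusted p = 0.00856), and Tap1, which loads peptides for presentation, had 1206 and 648 in IS against 70.3 and 65.4 in UIS (log2 change 3.69, SE 0.42, limma adjusted p = 0.00697). Ido1, an interferon-induced enzyme of tryptophan breakdown, had 1 read in UIS and 146 and 219 in IS, a ratio of 301 (interval 54.1 to 11898). Cd274, the checkpoint ligand PD-L1, had 442 and 634 in IS against 215 and 144 in UIS (log2 change 1.59, SE 0.38, limma adjusted p = 0.0351; 0.053 with the animal as a block). B2m, the light chain of MHC class I, had 30777 and 25907 in IS against 10205 and 11847 in UIS (log2 change 1.36, SE 0.30, limma adjusted p = 0.03; 0.0803 with the block). For each of these genes both tumors were above both UIS libraries.

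**Figure D3:**
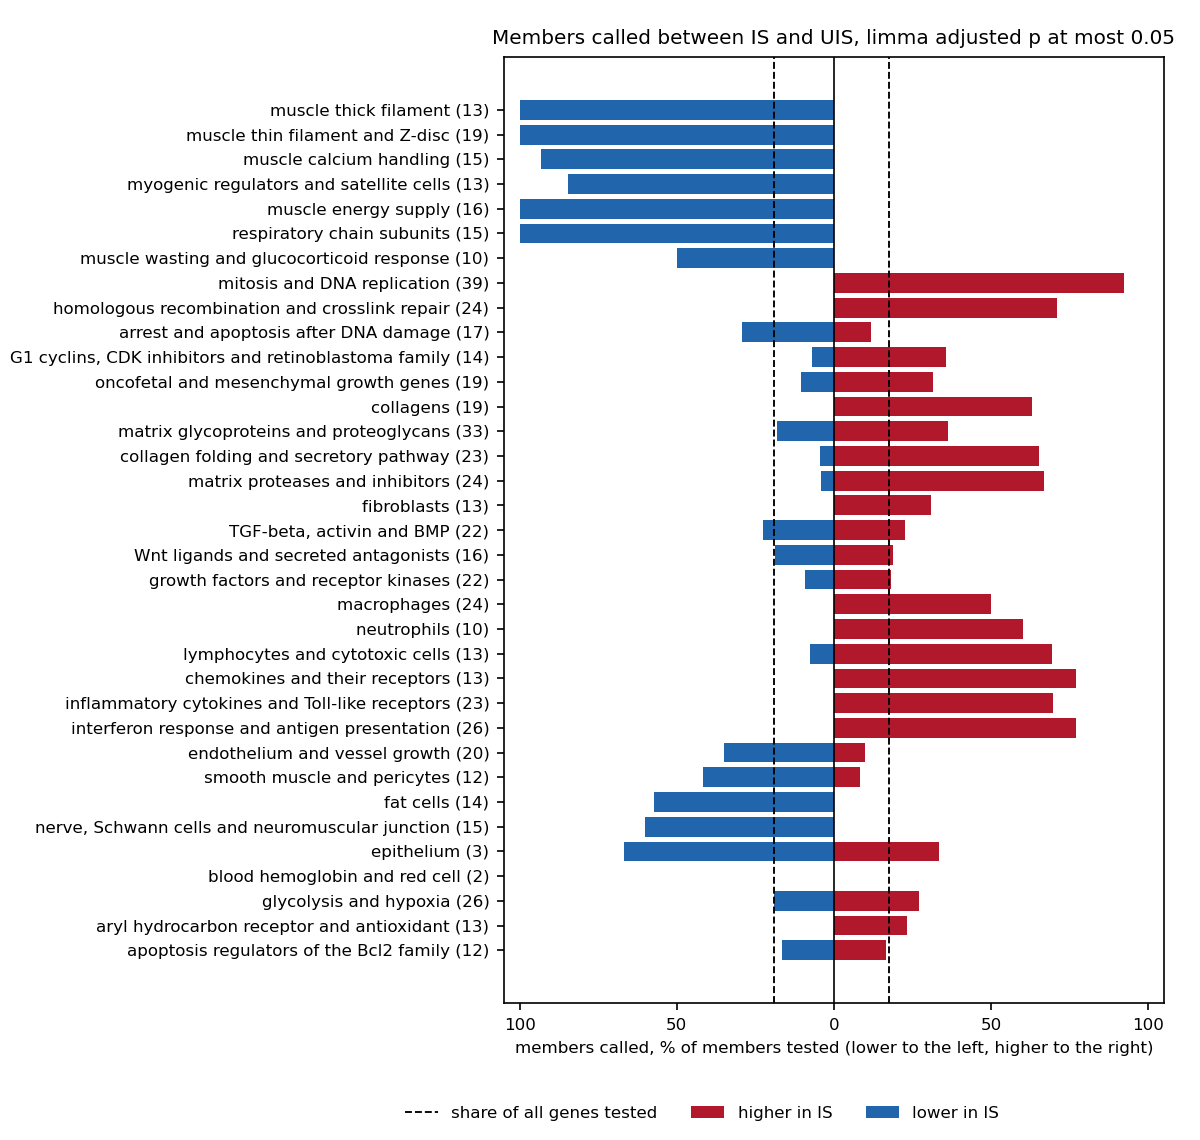
Share of tested members called in each of 35 gene lists (y axis, number tested in brackets), in percent, with members higher in IS to the right in red and members lower to the left in blue. Dashed lines mark the share of all genes tested, 17.4% higher and 19% lower, which the immune, collagen, protease and division lists pass on the right and the muscle, fat and nerve lists on the left.

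Glycolysis and hypoxia genes were lower about as often as all genes tested and higher somewhat more often. Of 26 members 7 were higher and 5 lower, and the median log2 difference was -0.35, or 0.45 with scaling by total reads, where 10 were higher and 3 lower. Hk1, the hexokinase of most tissues, had 3198 and 2187 in IS against 218 and 212 in UIS (log2 change 3.61, SE 0.29, limma adjusted p = 0.0039), whereas Hk2, that of muscle and many tumors, had 2602 and 580.5 in IS against 3323 and 2252 in UIS (adjusted p = 0.297). Aldoc had 96.5 and 540.3 in IS against 3.64 and 2.84 in UIS (log2 change 5.77, SE 0.95, limma adjusted p = 0.0149), and Aldoa, the aldolase of muscle, had 15403 and 11345 in IS against 123671 and 234478 in UIS (log2 change -3.69, SE 0.50, limma adjusted p = 0.01). Slc2a1, a general glucose transporter, had 4721 and 965 in IS against 84.9 and 148 in UIS (log2 change 4.24, SE 0.84, limma adjusted p = 0.023). The 2 factors that respond to low oxygen parted as well. Hif1a had 5546 and 2833 in IS against 662 and 543 in UIS (log2 change 2.72, SE 0.39, limma adjusted p = 0.0113) and Epas1 had 1188 and 1479 in IS against 4581 and 5471 in UIS (log2 change -1.92, SE 0.25, limma adjusted p = 0.0088). Vegfa, a hypoxia-induced vessel growth factor, had 5477 in the tumor of animal 2240 and 379 in that of animal 2230, around UIS levels of 2651 and 2649 (adjusted p = 0.629).

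Of 13 genes of the aryl hydrocarbon receptor and antioxidant response 3 were higher (23.1%, against 17.4% of all genes tested) and none lower. With the animal as a block 6 were higher, against 2355 of all 14696 genes tested. With scaling by total reads 7 were higher, against 5166 of the 14696. Ahr, the receptor of 3MCA, had 345 and 630.3 in IS against 67.9 and 42.6 in UIS (log2 change 3.09, SE 0.49, limma adjusted p = 0.014). Hmox1 (heme oxygenase) had 1835 and 1709.7 in IS against 212 and 222 in UIS (log2 change 3.02, SE 0.23, limma adjusted p = 0.00374), and Srxn1 (sulfiredoxin) had 3269.8 and 2778 in IS against 513 and 645 in UIS (log2 change 2.39, SE 0.25, limma adjusted p = 0.00595). Nqo1, a detoxifying reductase, had 436 and 902 in IS against 201 and 229 in UIS, with an adjusted p of 0.054 and of 0.044 with the block. The cytochromes Cyp1a1 and Cyp1b1 are not analysed here. In the Bcl2 family 2 of 12 genes were higher and 2 lower, 16.7% each way, near the 17.4% and 19% of all genes tested. The median log2 difference was -0.26. With scaling by total reads it became 0.54, with 4 genes higher and 1 lower, against 5166 and 1654 of all 14696 genes tested. Bok had 261 and 209.9 in IS against 52.1 and 55.4 in UIS (log2 change 2.10, SE 0.38, limma adjusted p = 0.0188), Bcl2a1 had 17.2 and 8.40 in IS against 135 and 136 in UIS (log2 change -3.38, SE 0.55, limma adjusted p = 0.0143), and Bcl2 itself had 239.7 and 212 in IS against 353 and 425 in UIS (adjusted p = 0.106).

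Oncofetal and mesenchymal growth genes are active in the embryo and again in some tumors. Of 19 tested, 6 were higher and 2 lower, and 10 and 2 with scaling by total reads (median log2 difference 0.97). The shares in the main test were 31.6% higher and 10.5% lower, against 17.4% and 19% of all genes tested. With scaling by total reads the background was 5166 higher and 1654 lower of all 14696 genes tested. Twist1, a transcription factor of mesenchyme, had 148 and 188 in IS against 10.9 and 12.8 in UIS (log2 change 3.71, SE 0.46, limma adjusted p = 0.00815), and Myc had 1892 and 874 in IS against 213 and 209 in UIS (log2 change 2.60, SE 0.44, limma adjusted p = 0.0159). Igf2, a fetal growth factor, had 14.8 and 65.4 in IS against 794 and 486 in UIS (log2 change -4.27, SE 0.81, limma adjusted p = 0.0206). Lin28a, a blocker of let-7 maturation, was at 0 in both tumors and at 38.8 and 45.5 in UIS, at least 23.1-fold lower. Some oncofetal genes were at a high level in 1 tumor and near 0 in the other. Hmga2 had 878 in animal 2240 and 1.80 in animal 2230, with 1.21 and 0 in UIS. Igf2bp1, an mRNA-binding protein of the embryo, had 628 in animal 2240 and 0 in the other 3 libraries, and Igf2bp2, its relative, had 1627 against 4.20 in animal 2230.

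The 2 tumors differed from each other more than the 2 UIS tissues did. The median absolute difference between libraries was 0.61 on the log2 scale for IS and 0.25 for UIS, and 1593 genes differed at least 4-fold between the tumors against 242 between the UIS libraries. As 1 library stood on each side, these differences were not tested, and they cannot be told apart from those of sex, time after injection or sampling. Of 9761 genes with a level of at least 100 in a tumor and a less than 2-fold difference between the UIS libraries, 413 differed at least 8-fold between the tumors, 217 higher in animal 2240 and 196 in animal 2230. Some of these genes carry growth signals. Grp, a neuropeptide that stimulates cell division, had 17612 in animal 2240 and 10.2 in animal 2230, with 2.42 and 4.26 in UIS. Wnt7b, a Wnt ligand, had 1014 against 0.600, and Dsg3, a desmosomal cadherin of epidermis, had 586 in animal 2240 and 0 in the other 3 libraries. On the other side, Cxcl14, a chemokine of epithelia, had 7694 in animal 2230 and 1.84 in animal 2240, with 484 and 344 in UIS. Krt2, an epidermal keratin, had 6239.7 in animal 2230 and 1.23 in animal 2240.

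**Figure D4:**
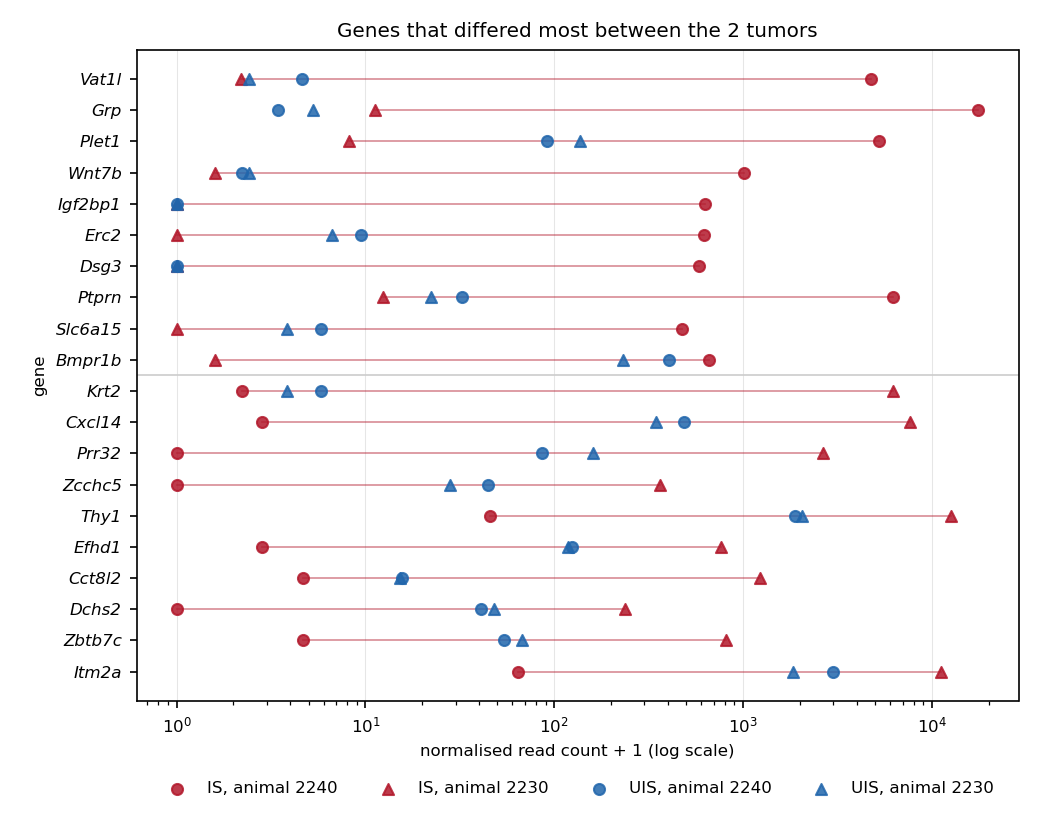
Normalised read count + 1 on a log axis of the 10 genes with the largest excess in the tumor of animal 2240 (upper 10) and of animal 2230 (lower 10), chosen for that difference, with a line joining the 2 tumors (red) and the UIS libraries in blue. The UIS libraries of both animals differ by less than 1 on the log2(value + 1) scale for every gene shown, as the choice required, and the gene Grp spans from 10.2 to 17612 between the tumors.

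Several members of the lists above also divided the tumors. Met, the receptor of hepatocyte growth factor, had 56798 in the tumor of animal 2240 and 375 in that of animal 2230, where UIS had 430.4 and 291. Cdk6, a partner of D-type cyclins, had 7499 against 19.2, and Hmga1, a chromatin protein of embryonic and tumor cells, had 16013 against 240.5. Asns, which makes asparagine, had 15828 against 201. Met, Cdk6, Hmga1 and Asns were thus all far higher in animal 2240. Other members were higher in animal 2230, with Col3a1 at 213119 against 19532, Dcn at 55605 against 3483, Eln (elastin) at 1987 against 62.7 and Igf1 at 3245 against 61.5. None of these 8 genes was a DEG between IS and UIS (limma adjusted p between 0.0925 for Col3a1 and 0.876 for Dcn). The examples were picked for the gap between the tumors, and Asns, Cdk6, Eln, Hmga1 and Igf1 lie outside the naming rule. Matrix genes did not all lean to animal 2230, since Tnc, Fap, Col11a1 and Lox, given above, had the higher level in animal 2240.

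Whether the tumor response differed between malignant and benign growth was asked with the difference of differences, (fibrosarcoma IS minus UIS) minus (granuloma IS minus UIS), over 8 libraries. Diagnosis went together with time after injection, which was longer for both fibrosarcomas, and partly with sex, as only animal 2230 was male. These cannot be told apart here. None of 15584 genes passed an adjusted p of 0.05 with limma (smallest adjusted p = 0.083, for Sln) or with edgeR, while DESeq2 called 88 genes, of which 16 had positive and 72 negative differences. Without the IS library of animal 2230 limma called 4 genes, and without that of granuloma animal 976 it called 2. An unadjusted p under 0.05 was reached by 766 genes (4.92% of genes tested), with the fibrosarcoma difference above the granuloma difference for 274 and below it for 492. Among the members of the lists it was reached by 14 of 19 collagens and 16 of 33 matrix glycoproteins and proteoglycans, with a limma adjusted p of at least 0.328 for each of them. The median difference was -2.73 for collagens and -2.80 for matrix glycoproteins and proteoglycans, against 0.01 over all genes tested. It was also reached by 11 of 39 genes of mitosis and replication, with a median difference of 1.54.

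Individual genes show the values behind these medians. Postn had 214855 and 79754 in the granulomas of animals 600 and 976 and 72.4 and 31.8 on their uninjected sides, where the fibrosarcomas had 6841 and 4003. The granuloma difference was 11.38 and the fibrosarcoma difference 3.70 on the log2 scale, which differed by -7.68 (SE 0.92, limma adjusted p = 0.328). Lum (lumican), a proteoglycan that spaces collagen fibrils, had 54200.3 and 52461 in granuloma IS and 1017 and 211 in granuloma UIS, while the fibrosarcoma animals had 1302 and 2843 in IS against 5189 and 2603 in UIS, with the tumor of animal 2230 inside the range of UIS. Its differences were 6.84 in granuloma and -0.93 in fibrosarcoma, apart by -7.78 (SE 1.06, adjusted p = 0.443). Mki67 went the other way. It had 1286 and 1180.01 in granuloma IS and 13.3 and 30.6 in granuloma UIS, a difference of 5.86, and the fibrosarcoma difference exceeded it by 3.15 (SE 0.68, adjusted p = 0.946). Muscle loss was present in both, with median differences of thick filament genes of -12.35 in fibrosarcoma and -10.81 in granuloma. The uninjected sides of the granuloma animals 600 and 976 were unlike for some muscle genes. Acta1 had 580374 and 82517 there, where the untreated controls had at least 508363. Trim63 had 3625 and 36366, where the controls had at most 5346. Ryr1 was alike, at 136991 and 131258. How far this moved the granuloma differences was not tested.

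**Figure D5:**
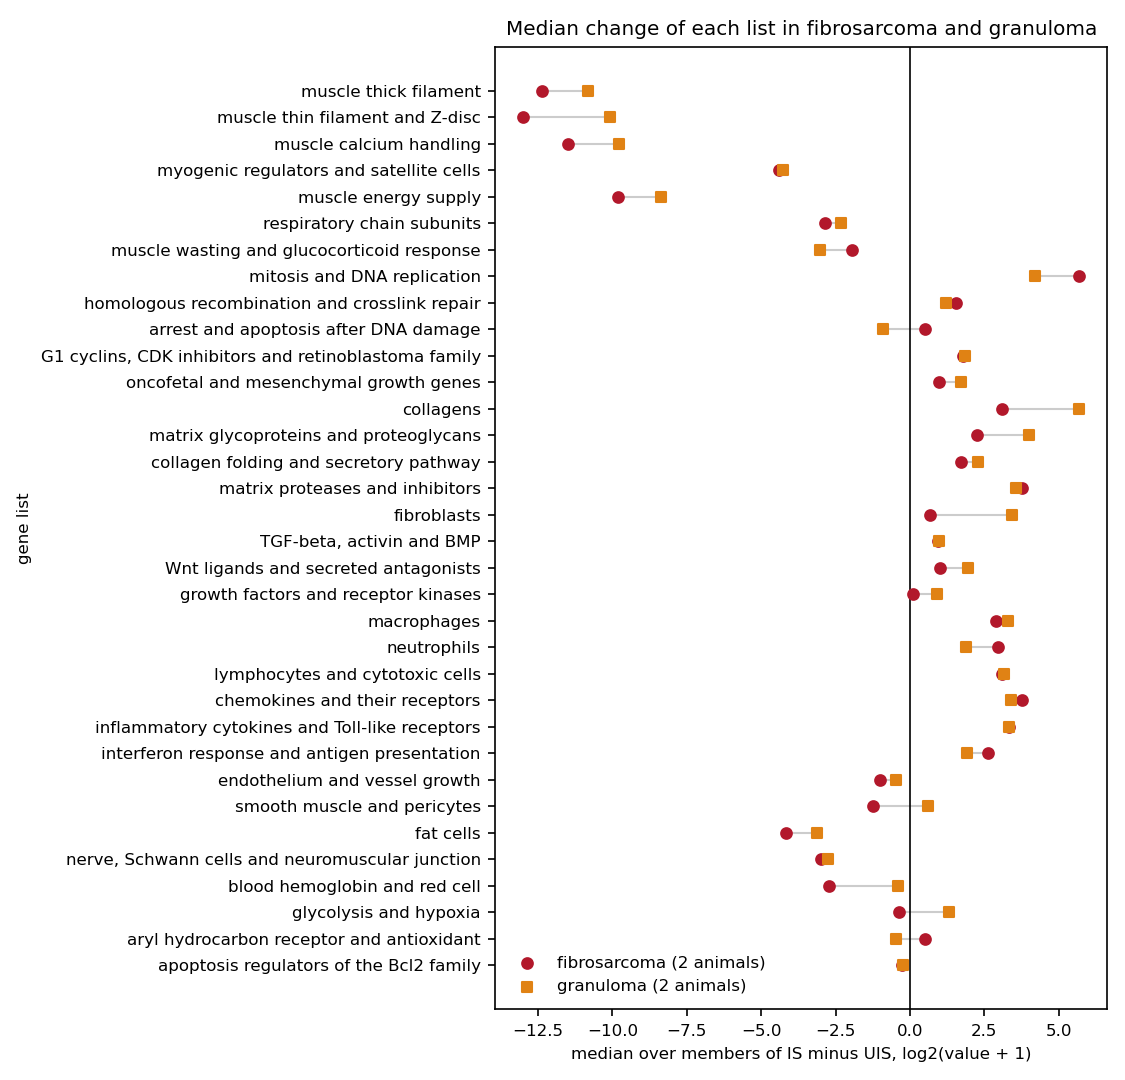
Median over the members of each list (y axis) of the IS minus UIS difference on the log2(value + 1) scale, for fibrosarcoma (red circles) and granuloma (orange squares), each from 2 animals. Collagen and fibroblast lists lie further right in granuloma (5.67 against 3.10 and 3.42 against 0.67) and the mitosis list further right in fibrosarcoma (5.69 against 4.20), without a test over lists.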

How the data were processed

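RNA of the Spalax tissues was sequenced as single-end, strand-specific libraries. The authors trimmed reads with Trimmomatic, mapped them to the published Spalax genome with TopHat and used htseq-count to obtain gene counts. The submitters' processing notes name TopHat version 1.4.1, HTSeq and DESeq, while the study's methods name TopHat2. The strand setting of the counting is not given in the sources used here, so overlapping and antisense genes cannot be told apart, and genes with near-identical copies may share reads. The deposited signal values are read counts divided by 1 size factor per library. Whole reads were recovered from them, with every value within 0.001 of a whole number of reads. Gene names with a comma were read with the comma as the letter t (2387 names).

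Values were compared as log2(value + 1) with limma 3.58.1 (linear model, empirical Bayes with a trend) in R 4.3.3, over the 4 libraries of animals 2240 and 2230 without a block, for genes with a value of at least 10 in at least 2 libraries. P-values were adjusted over all genes tested (Benjamini-Hochberg, threshold 0.05). Fold changes on this scale understate those of low genes. P-values measure the spread between these samples only. For genes at 0 in a group, the bound was taken against 3 reads per library, and for genes with 1 to 3 reads the ratio of mean levels has a 95% exact Poisson interval. The comparison with granuloma used the interaction term over 8 libraries. The count tests edgeR 4.0.16 and DESeq2 1.42.0 were run on the recovered reads as alternatives, beside other scalings, filters, pseudocounts, reference groups, the animal as a block and leaving out each library. The procedures were tested on simulated data. The animal number pairs the IS and UIS libraries by the labels, although the deviations of same-numbered libraries from their group means did not move together (correlation -0.0019 over 14696 genes, n = 2 animals). Figures were drawn with matplotlib 3.10.9.

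The tissue compared, the gene lists and the tests were chosen with earlier results of these data known. Named are the lead genes of each list, the largest rise and fall among the called members of each list, members called in a direction with at most 3 calls, the 10 largest rises and falls of all genes, and the 10 genes most different between the tumors in each direction. Outside this rule, and after their values were seen, were named Asns, Axl, C1qa, Cacng1, Casq2, Ccl5, Ccne1, Ccne2, Cd274, Cdh5, Cdk4, Cdk6, Cdkn2c, Cidea, Col1a2, Col6a2, Cthrc1, Dgat2, E2f8, Eln, Epas1, Fabp4, Fanca and the other repair genes that did not pass, Hgf, Hif1a, Hk1, Hmga1, Igf1, Igf2bp2, Lox, Lum, Ms4a1, Ogn, Omd, Chad, Fbln5, Pax3, Plaur, Plod2, Ppp1r3a, S100a4, Sox10, Sparc, Tap1, Thbs4, Timp3, Vim and Vwf. A few genes that the rule would name are not reported here. Columns of the mouse samples were not used here.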

Additional observations from a re-analysis of the deposited data

How the results depend on the processing

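The main count of 5339 genes called stayed within 1.5 times under TMM scaling (5307), edgeR (5096), DESeq2 (6358), both tools together (5009), 1 model over all 16 Spalax libraries (5930), a pseudocount of 0.1 (5046) or 10 (5413), no filter (4605), a filter at 50 (4998) and the 4 untreated controls as the reference (7556). Of the 120 genes named by the rule and called, 1 model over all 16 libraries ended 13 calls (B2m, Bmp7, Ccnd1, Ccr2, Cd3e, Cdk1, Creb3l1, Fgf21, Krt14, Leprel1, Plau, Postn and Sfrp4), no filter 10, a pseudocount of 0.1 ended 5 and of 10 ended 1, edgeR 3 (Cd3e, Fgf21 and Leprel1), the control reference 3 (Bmp7, Cdk1 and Krt18), and TMM scaling, DESeq2 and the filter at 50 none of those they tested. With the animal as a replicate block 4886 genes were called, 2355 higher and 2531 lower. The block ended 4 of the 120 calls and added 8, and it changed no other call of a gene named by the rule. Scaling by total reads gave 5285 higher and 1654 lower genes and ended 6 of the 120 calls (Bcl2l2, Leprel1, Mdm2, Myh11, Pecam1 and Rb1). The cause was not tested.

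Leaving out 1 library moved the counts most, because 1 lone library is then assumed to vary like the other group. Genes called ranged from 18, without the UIS library of animal 2230, to 8656, without the IS library of animal 2240, and were 21 without the UIS library of animal 2240 and 8508 without the IS library of animal 2230. Higher genes ranged from 2 to 4063 and lower genes from 16 to 4593. Without either UIS library 85 of 94 named calls that could be fitted were lost and 9 were kept, and without either IS library all 97 that could be fitted were kept. For the difference between fibrosarcoma and granuloma, DESeq2 called 88 genes, and leaving out 1 library gave 0 to 4 calls, with 4 without the fibrosarcoma IS library of animal 2230 and 2 without the granuloma IS library of animal 976.

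Uncalled genes on which the tumors stood on either side of UIS changed sign when 1 tumor was left out. This follows from their choice, as only the difference of the other tumor is then left, and is no further test. The range of log2 differences, from leaving out 1 tumor to leaving out the other, was -0.86 to 0.85 for Cdkn1c, -2.23 to 1.86 for Cxcl12, -2.31 to 1.69 for Dcn, -1.09 to 2.09 for Fgfr1, -5.42 to 2.68 for Thy1, -2.80 to 1.05 for Vegfa and -1.81 to 3.79 for Wnt5a. With 2 animals and 7.03 to 8.25 UIS reads behind a value of 10, small differences of low genes were not detectable at this depth.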
